A study of Homo sapiens with 8 samples.

Results

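The regions described here are 390 entries from the top of a list of TEAD4 binding regions called in human embryonic stem cells treated with SB431542. They were picked in 3 steps: rows 1 to 1000 of that list in file order, chromosomes 1 to 22, and a distance of at most 500 kb to a stretch of at least 1 Mb in which none of the 3 region lists at hand holds an entry. The whole list has 262109 regions. Of its first 1000 rows, 853 lie on the autosomes, of which the 390 lie beside such an empty stretch and 463 do not; the other 147 lie on chromosomes X, Y and M. The 390 are called border regions below. They were chosen by their row number and their position, measured in the SB431542 list and, for the empty stretches, in all 3 lists, so row and position are given as a description with no test.

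The cells are WA09, a human embryonic stem cell line in wide use, kept on Matrigel in medium conditioned by mouse embryonic fibroblasts (MEF). All libraries come from this line, fixed with formaldehyde and sheared by sonication. The lists used are TEAD4 chromatin immunoprecipitation after 4 h in 10 µM SB431542, TEAD4 after 4 h in the solvent DMSO (289380 regions), and SMAD2 after 4 h in DMSO (420548 regions). There is 1 library per group, which leaves no replicate error and no p-value to report; intervals are 95% intervals for counting error only, and neighbouring regions are not independent. Input, IgG and SB431542 SMAD2 samples were not analysed here. Read depth is unknown, because each list gives only a chromosome, a start and an end.

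TEAD4 is a DNA-binding protein of the TEA domain family, through which the Hippo pathway coactivators YAP and TAZ reach their target genes. SB431542 blocks the type I receptors for activin, Nodal and TGF-β, the kinases that phosphorylate SMAD2. As background on the genome, build hg19 holds centromeres and the short arms of some chromosomes as runs of unknown bases, and the assembled DNA next to them is rich in satellite repeats and segmental duplications, of which a build shows fewer copies than a cell carries. Reads from such repeats can gather on the few copies shown, in input DNA as well as in precipitates, which is why lists of regions to leave out of binding studies hold many of these places. Whether the border regions lie in such repeats, or next to runs of unknown bases, was not tested, since neither sequence nor gap positions of hg19 were used. No sequence is printed for the same reason.

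The border regions lay beside 20 of the 24 autosomal empty stretches, on 18 chromosomes, and 3 stretches held 188 of them (48.2%). The stretch on chromosome 10, from 39154414 to 42354928 in hg19, had 90 border regions, 25 before it and 65 after it. The stretch on chromosome 16, from 35285428 to 46385721, had 58, of which 56 lay after it. The longer stretch on chromosome 2, from 92324947 to 95330950, had 40, all of them before it. The stretch on chromosome 4, from 49660031 to 52677050, followed with 21, and that on chromosome 19, from 24618950 to 27731698, with 19. Of the 20 stretches, 14 had border regions on both sides and 6 on 1 side only, and among these 6 the stretches of chromosome 14 and the first of chromosome 21 start at the first base and have no other side. There were 187 border regions before a stretch and 203 after one.

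Most of the stretches resembled each other in length. Of the 24, 15 were between 2999923 and 3200515 bp long, and all of these 15 had border regions. A further 5 ran from the first base of chromosomes 13, 14, 15, 21 and 22. Of these, the stretch of chromosome 14 had 7 border regions and that of chromosome 21 had 3, while those of chromosomes 13, 15 and 22 had 0. The stretch of chromosome 9, 18.3 Mb long, had 0 as well. Few SB431542 regions of any row lay within 500 kb of the stretches on chromosomes 9 (3 regions), 13 (10) and 22 (2), and 49 did on chromosome 15.

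**Figure D1:**
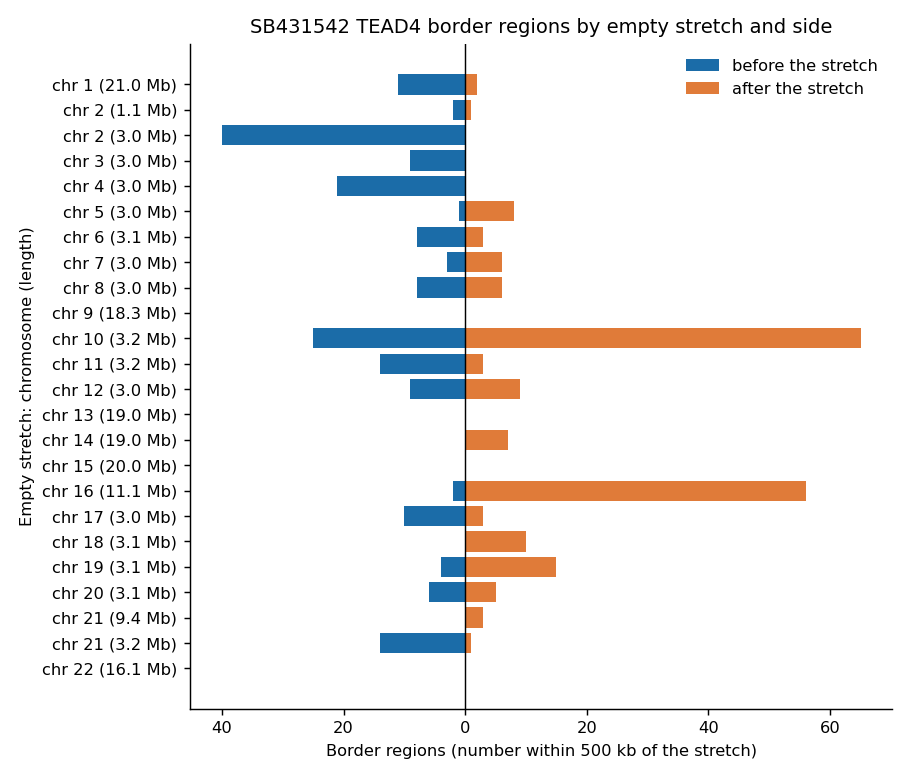
Number of border regions beside each of the 24 autosomal empty stretches, drawn to the left for regions before the stretch and to the right for regions after it, with the chromosome and length of each stretch on the vertical axis. Chromosome 10 (90), chromosome 16 (58) and the longer stretch of chromosome 2 (40) hold 188 of the 390.

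The first row of the whole SB431542 list was a border region on chromosome 1, at 121484042 to 121485523, 1482 bp wide. Its end is the last called base before a stretch of 21.0 Mb. It had no TEAD4 partner in DMSO cells and met a SMAD2 region at row 8994 of that list (121483901 to 121484199). Row 2 lay on chromosome 10 at 42379636 to 42381294, 24.7 kb past the stretch and 1659 bp wide, with a partner in neither DMSO list. Row 4 lay on chromosome 19 at 27731699 to 27732890, directly at the stretch; its TEAD4 partner in DMSO cells (27732801 to 27732949) stood at row 242687 of 289380. Rows 5 and 6 were again on chromosome 10, at 42392277 to 42392987 and at 42384988 to 42385670, and neither had a DMSO partner. Within the first 5 border regions, therefore, 3 came from 1 locus of chromosome 10.

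The widest border regions were several times as wide as any DMSO region they met. One on chromosome 6 at 58776411 to 58779383 (row 9) was 2973 bp wide and lay 0.733 kb before the stretch. A region on chromosome 18 at 18516785 to 18519424 (row 8) was 2640 bp wide. The next, on chromosome 10 at 38816052 to 38818653 (row 442), was 2602 bp wide, lay 336 kb before the stretch and met 3 separate DMSO TEAD4 regions. The chromosome 6 and chromosome 18 regions each met a single DMSO TEAD4 region, 149 and 199 bp wide, at rows 281611 and 164225.

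Border regions stood close to the stretches and close to each other. Their median distance to the stretch was 25.2 kb (interquartile range 8.40 to 64.1 kb), although the rule allowed 500 kb, and 281 of them (72.1%) lay within 50 kb. Of the 2144 later rows of the same list within 500 kb of the same stretches, 445 (20.8%) lay within 50 kb, with a median distance of 199 kb. A total of 12 border regions lay directly at a stretch, so that their own edge set its border. When the stretches were taken from the 2 DMSO lists alone, a step chosen after the data were seen, the number was again 390. It could not fall, because leaving out a list can only lengthen stretches or add new ones. The step therefore cannot show what the self-set borders change.

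**Figure D2:**
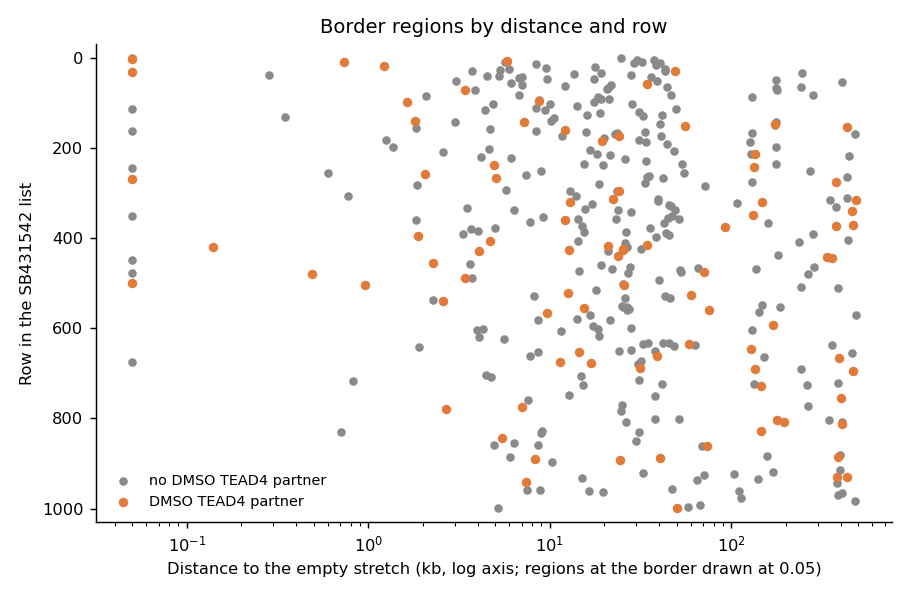
Each of the 390 border regions by its distance to the empty stretch (kb, log axis, with regions directly at the border drawn at 0.05) and its row in the SB431542 list (row 1 at the top), coloured by whether a DMSO TEAD4 region overlaps it. Most points lie below 50 kb (281 of 390), and the 90 coloured ones with a partner spread over all distances and rows.

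Counted with the border regions, the gathering near a stretch was far stronger in the SB431542 list than in either DMSO list. Within 50 kb of the autosomal stretches, 2.15 Mb in all, the SB431542 TEAD4 list had 338 regions per Mb, 3.65 times its density over the autosomes outside the stretches (92.4 per Mb). The DMSO TEAD4 list had 102 regions per Mb there, 1.01 times its autosomal density of 101 per Mb. The DMSO SMAD2 list had 105 per Mb, 0.703 times its autosomal density of 149.6 per Mb. Between 50 and 500 kb the ratios were 1.03 for SB431542 TEAD4, 0.790 for DMSO TEAD4 and 0.757 for DMSO SMAD2. Over regions of any row, the SB431542 list thus exceeded its own autosomal density in the innermost 50 kb and hardly beyond. Of the 726 SB431542 regions in those 50 kb, 281 are border regions, which were chosen by their nearness, and 445 are later rows. The density without the border regions was not computed.

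The rows of the regions near a stretch are given next as a description, since row and place chose the border regions and these values add no support. Of the 726 SB431542 regions within 50 kb of a stretch, 281 (38.7%) were among the first 1000 rows, whereas 0.342% of all autosomal regions of that list were. Of the 219 DMSO TEAD4 regions within 50 kb, 2 (0.913%) were among the first 1000 rows of their list, and of the 226 DMSO SMAD2 regions 1 (0.442%) was. From 50 to 500 kb, 109 of 1808 SB431542 regions (6.03%) were among the first 1000 rows. In the DMSO lists 4 of 1526 TEAD4 regions (0.262%) and 6 of 2159 SMAD2 regions (0.278%) were. Within 5 kb of a stretch, the median row was 1052 of 262109 in the SB431542 list, 187294 of 289380 in the DMSO TEAD4 list and 179614 of 420548 in the SMAD2 list. Over the full 500 kb, 390 of 853 autosomal first rows under SB431542 (45.7%, Wilson interval 42.4 to 49.1%) lay beside a stretch, against 6 of 953 in the DMSO TEAD4 list (0.630%, 0.289 to 1.37%) and 7 of 971 in the SMAD2 list (0.721%, 0.350 to 1.48%). The lists were made differently: all starts of both DMSO lists are multiples of 50 bp, against 1.97% of SB431542 starts and 5 of the 390 border regions (1.28%). Treatment and the way a list was made cannot be told apart here.

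**Figure D3:**
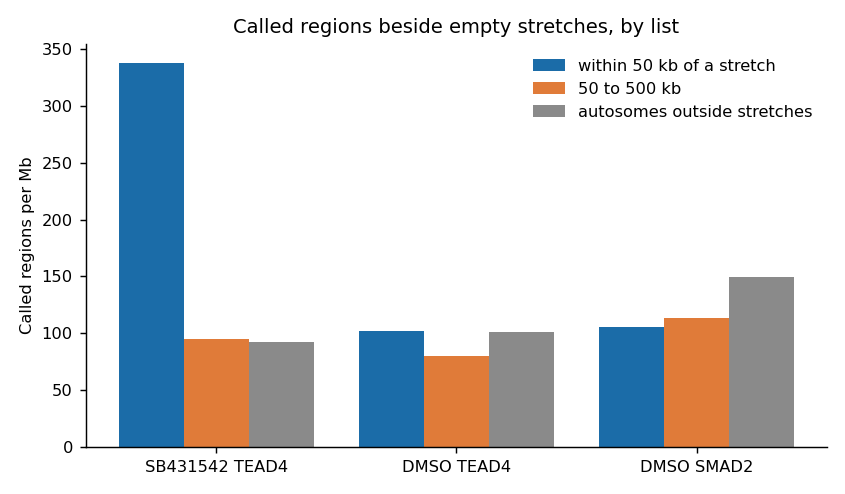
Called regions per Mb in each list, within 50 kb of an autosomal empty stretch, from 50 to 500 kb, and over all autosomes outside the stretches. With the border regions included, SB431542 TEAD4 reaches 338 per Mb within 50 kb, while the DMSO TEAD4 list stays at 102 and the DMSO SMAD2 list at 105.

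The border regions formed tight groups. Joined at gaps of up to 10 kb they fell into 82 groups, and 207 of the 390 (53.1%) stood in 8 groups of 10 or more, while 31 stood alone. The other 463 autosomal first rows fell into 303 groups, with 119 (25.7%) in 6 groups of 10 or more and 273 alone. The rule kept border regions within 500 kb of a stretch, whereas the others could lie anywhere else on the autosomes. Tighter grouping of border regions was thus favoured by the choice itself, and these counts are a description. The median gap to the previous border region on the chromosome was 817 bp. The largest group lay on chromosome 16 from 46385722 to 46443953. In its 58.2 kb, 56 border regions and 81 SB431542 regions of any row were called, with 0 regions of the DMSO TEAD4 list and 0 of the SMAD2 list. The first of them by row was row 22, at 46403572 to 46403956, and the last was row 996, at 46443717 to 46443953.

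The next group, on chromosome 10 from 42354929 to 42418399 (63.5 kb), held 47 border regions and 78 SB431542 regions in all, against 7 DMSO TEAD4 and 3 SMAD2 regions. A group of 40 on chromosome 2 from 92269000 to 92324946 (55.9 kb) held 61 SB431542 regions, 6 DMSO TEAD4 regions and 0 SMAD2 regions. The first of these 40, row 30 at 92275838 to 92276063, met a DMSO TEAD4 region at row 132293, and the last, row 959 at 92315916 to 92316117, met none. On chromosome 4 a group of 15 ran from 49633590 to 49660030, with 49 SB431542 regions, 6 DMSO TEAD4 regions and 0 SMAD2 regions. It held the first border region of that stretch, row 33 at 49659477 to 49660030, which met DMSO TEAD4 row 260495, and the last, row 844 at 49654272 to 49654564, which met row 81624. On chromosome 19 the last border region was row 960 at 27842134 to 27842334, 110 kb past the stretch, with no DMSO TEAD4 partner. The spans of these groups were drawn from SB431542 rows, so their SB431542 counts are a description. The DMSO TEAD4 list had 110 regions per Mb in the chromosome 10 span, 107 in that of chromosome 2 and 227 in that of chromosome 4, at or above its 101 per Mb over the autosomes, and 0 in that of chromosome 16. Because regions of 1 group share their place, they are not separate observations of TEAD4 binding.

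Whether TEAD4 was also called at the border regions in DMSO cells was asked by overlap of at least 1 bp, a readout of another library that the choice did not use beyond the empty stretches. Of the 390 border regions, 90 (23.1%, 19.2 to 27.5%) overlapped a DMSO TEAD4 region, against 277 of the 463 other autosomal first rows (59.8%, 55.3 to 64.2%). Over the whole SB431542 list the share was 6.39%. The difference between the border regions and the other first rows was -36.8 percentage points (Newcombe interval -42.6 to -30.4). Border regions nonetheless met DMSO TEAD4 regions more often than later rows beside the same stretches did, at 183 of 2144 (8.54%, 7.43 to 9.79%), a difference of 14.5 points (10.4 to 19.1). Border regions were wider than those later rows (medians 247 and 178 bp), and the part of width in this difference was not tested.

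The partners stood at other places of the DMSO list. The 90 border regions with a partner had it at a median row of 148900 of the DMSO TEAD4 list (interquartile range 50265 to 242688), and 0 of them had it among the first 1000 rows. Over the whole SB431542 list, 723 of the 16743 regions with a partner (4.32%) had it among those rows, and the median partner row was 97856. The first 1000 DMSO TEAD4 rows held 6 autosomal regions within 500 kb of a stretch, so few such partners were on offer to border regions. DMSO TEAD4 regions beside the stretches stood late in general. In steps of distance up to 500 kb, their median row ranged from 158212 (10 to 25 kb) to 187294 (within 5 kb). The late rows are thus not particular to the partners of border regions. The 277 other first rows with a partner had it at a median row of 506 (108 to 23597), and 155 of them (56.0%) had it among the first 1000 rows. Among the first 5000 DMSO rows, 8 border regions and 182 of the other first rows found their partner. The DMSO regions met by border regions had a median width of 199 bp, the same as the whole DMSO TEAD4 list, whereas those met by the other first rows had a median of 399 bp. Among first rows with a partner, those away from the stretches therefore met earlier and wider DMSO regions than border regions did. The remaining 186 of the 463 other first rows had no DMSO TEAD4 partner.

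**Figure D4:**
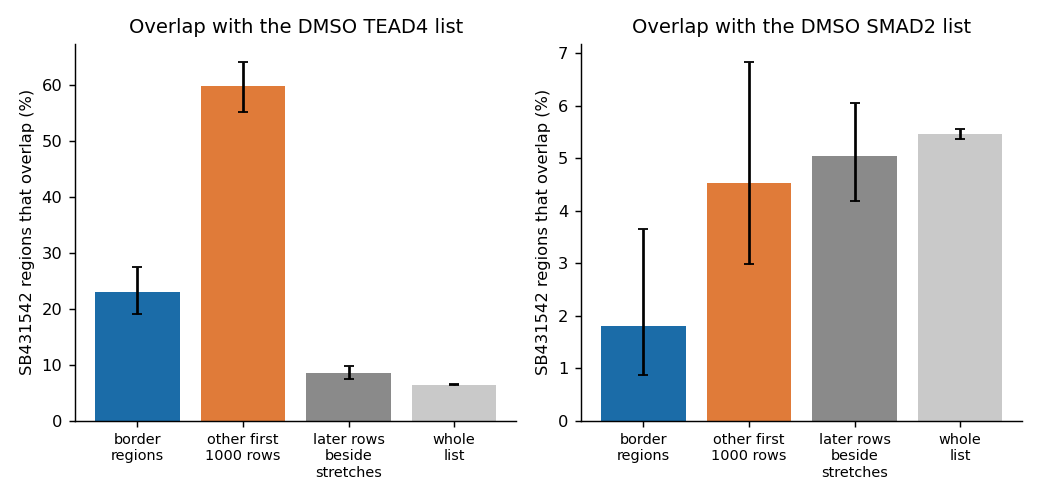
Share of SB431542 TEAD4 regions that overlap a DMSO TEAD4 region (left) or a DMSO SMAD2 region (right) by at least 1 bp, for the 390 border regions, the 463 other autosomal first rows, 2144 later rows beside the same stretches and the whole list; error bars are 95% Wilson intervals for counting error. For TEAD4 the border regions (23.1%) lie between the other first rows (59.8%) and the whole list (6.39%), and for SMAD2 they lie lowest (1.79%).

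The border regions with the earliest DMSO partners were few. The earliest was on chromosome 10 at 42356977 to 42358459 (row 259, 1483 bp), 2.05 kb past the stretch, whose first of 2 partners was DMSO row 1402 at 42357001 to 42357299. On chromosome 12 the region at 38038024 to 38038234 (row 803) met DMSO row 1554 at 38037851 to 38038049, with their shared part at the edge of both. On chromosome 2 the region at 92284244 to 92284451 (row 887) lay inside DMSO row 2525 at 92284151 to 92284599. On chromosome 10 the region at 39078958 to 39079172 (row 559) met DMSO row 2564 at 39079101 to 39079499. On chromosome 12 a region of 201 bp at 34847530 to 34847730 (row 889) lay inside DMSO row 2581 at 34847451 to 34847849.

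The match depended on how closely regions had to coincide. When 50% of both regions had to be shared, 6.15% of border regions (4.17 to 8.99%) and 43.6% of the other first rows had a DMSO TEAD4 partner. With midpoints within 100 bp the shares were 9.23% and 44.7%. Border regions lost most of their partners under the closer rules, and the differences were -37.5 and -35.5 points.

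Along the first 1000 rows the border regions became fewer and the other rows came to match the DMSO list. Of rows 1 to 100, 64 were border regions, and of rows 901 to 1000, 26 were. In rows 1 to 100, 10 of 64 border regions (15.6%) and 4 of 23 other autosomal rows (17.4%) overlapped DMSO TEAD4, a difference of -1.77 points whose interval (-22.7 to 13.2) includes 0. In rows 901 to 1000, 4 of 26 border regions (15.4%) and 53 of 66 other rows (80.3%) did, a difference of -64.9 points (-77.0 to -43.6). In rows 1 to 500 the shares were 21.5% of 246 border regions and 41.4% of 181 others, and in rows 501 to 1000 they were 25.7% of 144 border regions and 71.6% of 282 others. The low match at the very top of the SB431542 list was thus not limited to border regions.

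**Figure D5:**
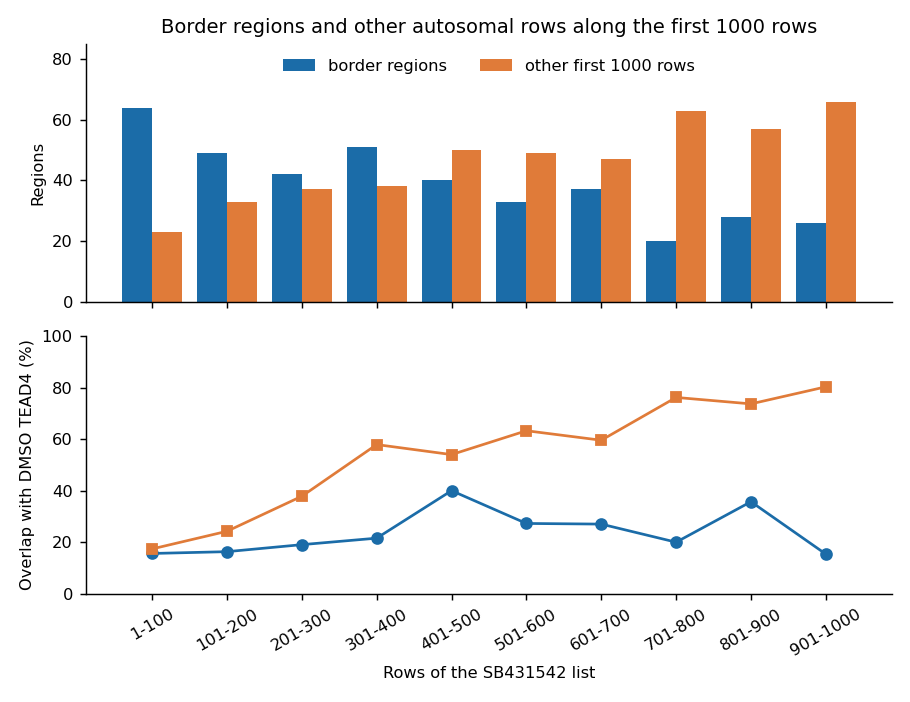
Numbers of border regions and of other autosomal regions in each 100 rows of the SB431542 list (top), and the share of each that overlaps a DMSO TEAD4 region (bottom). Border regions number 64 in the first 100 rows and 26 in the last 100, and the share among other rows reaches 80.3% while that of border regions ends at 15.4%.

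Among the other first rows, too, the match with DMSO TEAD4 was lower closer to a stretch. Of these 463, 78 lay between 500 kb and 1 Mb from a stretch and 19 of them overlapped DMSO TEAD4; 63 lay between 1 and 5 Mb and 29 did; and 322 lay farther away, of which 229 (71.1%, 65.9 to 75.8%) did. The distance limit therefore did not separate 2 kinds of region cleanly. The border regions farthest from a stretch were on chromosome 7 at 61542486 to 61542686 (row 570, 488 kb) and on chromosome 21 at 10701944 to 10703176 (row 316, 484 kb). Just outside the limit were regions on chromosome 4 at 49156335 to 49157097 (row 482, 503 kb) and 49155418 to 49155778 (row 403, 504 kb), and 10 of the other first rows, both of these among them, lay between 500 and 520 kb from a stretch on that chromosome. By row, the last border regions were row 998 on chromosome 1 (121480099 to 121480310) and row 999 on chromosome 10 (42404869 to 42405077). The first rows past the limit were row 1004 on chromosome 21 (10833348 to 10833545) and row 1007 on chromosome 10 (42373843 to 42374321).

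Border regions were more often narrow, and more often very wide, than the other first rows. The median was 247 bp (interquartile range 210 to 434 bp), against 314 bp (264 to 411 bp) for the other first rows. A width of 198 to 220 bp was found for 152 border regions (38.97%) and 55 other first rows (11.9%), and a width of at least 1000 bp for 32 border regions (8.21%) and 17 other first rows (3.67%). No region of the first 1000 autosomal rows was narrower than 198 bp. Row order, which chose the border regions, goes with width (Spearman correlation of row and width among border regions -0.416). The widths are therefore a description. Overlap with DMSO TEAD4 differed by width. Among regions of 221 to 300 bp, 7 of 80 border regions (8.75%, 4.30 to 17.0%) and 107 of 149 other first rows (71.8%, 64.1 to 78.4%) had a partner. Among those of 301 to 500 bp, 15 of 79 border regions (19.0%) and 131 of 181 others (72.4%) did. Among those of 198 to 220 bp the shares were 30.3% of border regions and 32.7% of others, and among those of 501 to 1000 bp 17.0% and 29.5%. Above 1000 bp the order was reversed, with 14 of 32 border regions (43.75%, 28.2 to 60.7%) and 3 of 17 others (17.6%, 6.19 to 41.0%). The gap in matching was thus largest in the widths of 221 to 500 bp, and weighting the other first rows to the widths of the border regions changed the difference to -24.1 points (-31.0 to -17.2).

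Matching with DMSO TEAD4 varied from stretch to stretch. On chromosome 16, 0 of 58 border regions had a partner, while 98 DMSO TEAD4 regions lay within 500 kb of that stretch. The group from 46385722 to 46443953 held 56 of the 58. Its span held 0 DMSO TEAD4 regions, so all 98 lay outside it. An upper limit of 5.17% for the share would count the 58 as separate observations, which regions of the same group are not. On chromosome 10, 14 of 90 border regions (15.6%) had a partner, and on the longer stretch of chromosome 2, 7 of 40 (17.5%) did. On chromosome 4, 8 of 21 (38.1%) did, and on chromosome 19, 9 of 19 (47.4%). Chromosome 8 had the highest share among stretches with at least 10 border regions, with 9 of 14 (64.3%). It was singled out after the values were seen. Without the chromosome 10 and 16 stretches the share over all border regions was 31.4% (25.9 to 37.5%).

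Seen from the DMSO list, TEAD4 regions near a stretch met the SB431542 list often. Of the 219 DMSO TEAD4 regions within 50 kb of a stretch, 93 (42.5%, 36.1 to 49.1%) overlapped an SB431542 region of any row, against 5.69% of the whole DMSO TEAD4 list. From 50 to 500 kb, 162 of 1526 (10.6%, 9.17 to 12.3%) did. The SB431542 list was 3.65 times as dense within 50 kb as over the autosomes, and its part in this share was not tested. The 300 border regions without a partner had the next DMSO TEAD4 region at a median distance of 4.09 kb, close to the 4.26 kb of the 186 other first rows without one; 104 (34.7%) and 40 (21.5%) had none within 10 kb.

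SMAD2 was rarely called at border regions. Of the 390, 7 (1.79%, 0.872 to 3.66%) overlapped a DMSO SMAD2 region, against 21 of the 463 other first rows (4.54%, 2.99 to 6.83%). Over the whole SB431542 list the share was 5.46%. The difference from the other first rows was -2.74 points (-5.22 to -0.317), and from the later rows beside the stretches, of which 108 of 2144 (5.04%) overlapped SMAD2, it was -3.24 points (-4.61 to -1.20). These differences rest on 7 regions. The SMAD2 list was itself less dense within 50 kb of a stretch, at 105 against 149.6 per Mb.

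A total of 3 border regions (0.769%) were called in all 3 lists, each 201 to 219 bp wide. One on chromosome 3 at 90429958 to 90430158 (row 862) met TEAD4 row 62223 (90429851 to 90430099) and SMAD2 row 6026 (90429851 to 90430149) of the DMSO lists, which start at the same base. The region on chromosome 12 in row 889, named above, met SMAD2 row 240102 (34847451 to 34847699), which starts at the same base as the TEAD4 partner. The remaining one, on chromosome 8 at 46845322 to 46845540 (row 407), met TEAD4 row 271649 and SMAD2 row 55154. The other 4 border regions with SMAD2 had no TEAD4 partner in DMSO cells: row 1 on chromosome 1, row 16 on chromosome 10, row 467 on chromosome 8 and row 749 on chromosome 14. In all, 87 border regions (22.3%) overlapped DMSO TEAD4 alone. Neither DMSO list was met by 296 border regions (75.9%), against 184 of the 463 other first rows (39.7%) and 88.7% of the whole SB431542 list. The shares in all 3 lists and with DMSO TEAD4 alone were not counted over the whole list, so these counts are a description.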

How the data were processed

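The values used are the positions in bp of called regions, in 3 lists that the authors deposited with 3 columns and no header. Positions refer to hg19, which the submitters' processing notes name. For aligner, caller, threshold and control library, nothing is stated in the sources used here. The name of a list gives the precipitated protein and the treatment, which fit the title of 1 sample only. Row order is file order; no header says that it is a ranking. Starts were raised by 1 bp for printing, and width is end minus start.

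Empty stretches, distances and overlaps (at least 1 bp) were computed in Python 3.11.15 with NumPy 2.4.6, SciPy 1.17.1 and pandas 2.3.3, and drawn with matplotlib 3.10.9; the functions were tested on simulated data. Shares carry 95% Wilson intervals and differences Newcombe intervals. Density is regions per Mb over the autosomes outside the stretches. The interval at equal width uses a normal approximation.

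The border regions, groups and settings were chosen with earlier results of these data known. Named regions follow a rule: the first 5, the 3 widest, those in all lists, the earliest DMSO partners, the first without a partner, the first and last of the 5 fullest stretches, and those at the limits. Regions on X, Y and M were left out.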

Additional observations from a re-analysis of the deposited data

Results flagged for a closer look

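Among the first 1000 SB431542 rows outside the autosomes, 101 of 147 (68.7%, Wilson interval 60.8 to 75.6%) also lay within 500 kb of an empty stretch, on chromosomes X and Y, which the choice of border regions leaves out. They were 19 of the 34 first rows on X (55.9%) and 82 of the 108 on Y (75.9%). The regions called on Y are positions in the list. They are not read here as TEAD4 binding to that chromosome, which was not tested. Of all 12743 regions of the list on X and Y, 484 (3.798%) lay beside a stretch. The 147 also hold rows on chromosome M, where no stretch was sought, so the bases of these shares differ. Row and place are the values that chose the border regions, so these shares are a description. The median width of the 101 regions was 402 bp, 23 of them (22.8%) overlapped a DMSO TEAD4 region and 1 a DMSO SMAD2 region.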

How the results depend on the processing

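Of 16 alternatives, 10 were planned and 6 were added after the data were seen. They gave 66 values, of which 49 stayed within the interval of the reported value (for the number of border regions, within 1.5 times) and 17 moved further. Only the 16 values of the difference could change sign, and 0 did. The number of border regions was 246 with the first 500 rows, 222 without the widest 1% of regions and 242 without the chromosome 10 and 16 stretches, and their median width was then 294, 212 and 229 bp. The share overlapping DMSO TEAD4 was 6.15% with 50% of both regions, 9.23% with midpoints within 100 bp, 31.4% without the chromosome 10 and 16 stretches and 39.9% with regions joined within 1 kb, where the share overlapping SMAD2 was 3.72%. A stricter overlap rule can only lower a share. The difference in DMSO TEAD4 overlap from the other first rows was -19.9 points with the first 500 rows, -43.7 with a distance of 1 Mb, -20.9 without the widest 1%, -28.4 without the chromosome 10 and 16 stretches, -24.1 at equal width classes and -48.0 against other rows over 5 Mb from a stretch; its interval lay below 0 in all 16. The cause of the other shifts was not tested. No paired analysis was possible because there is a single library in each group; for that reason none was left out in turn. With depth and threshold unknown, absence from a list is no measure of absent binding.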

Other observations

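Some of the other autosomal first rows formed groups of the same kind at places that the distance limit leaves out. On chromosome 2 a group of 31 ran from 132986972 to 133039190 (52.2 kb, first row 60), of which 6 overlapped DMSO TEAD4. On chromosome 4 a group of 24 ran from 49093199 to 49126879, of which 10 did. On chromosome 16 a group of 22 ran from 33950081 to 33975971, of which 4 did. These groups were chosen after their values were seen, as the 3 largest joined at gaps of up to 10 kb.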
